A study of Mus musculus with 2 samples.

Results

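The LIN28, IGF2BP and HMGA genes are 3 small families best known from the embryo and from tumours, and they were examined here in the calf muscle of 14-day-old mice. All 7 protein-coding members (Lin28a, Lin28b, Igf2bp1, Igf2bp2, Igf2bp3, Hmga1 and Hmga2) were selected by gene symbol, out of 55536 annotated genes, without regard to their level. Total RNA had been sequenced from the gastrocnemius of untreated male B6CASTF1/J mice, the first-generation hybrids of C57BL/6J and CAST/EiJ, and 300 ng of RNA with added synthetic RNAs went into each library. There was 1 group with 2 biological replicate libraries, which held 40825601 and 37329025 expected counts (reads assigned to genes by estimation). The labels mention 3 males and give both libraries 1 donor identifier, which does not settle whether 1 animal or several gave the RNA. No younger or older group was analysed here, so the values show which of these genes were present at 14 days and not how they had changed since birth.

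LIN28A and LIN28B bind the precursors of the let-7 microRNAs and block their maturation. Mature let-7 in turn pairs with sites in the 3' untranslated regions (3' UTRs) of growth-promoting messages, among them those of LIN28, HMGA2 and IGF2BP1, so the families sit in a loop of mutual repression. The IGF2BP proteins coat messages such as that of the growth factor IGF2 and recognise the m6A base modification, and the HMGA proteins bend AT-rich DNA in chromatin. In skeletal muscle IGF2BP2 and HMGA2 are known from myoblasts and satellite cells, the resident stem cells.

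The let-7 family shares the seed, bases 2 to 8 of the mature strand, which largely sets the messages a microRNA pairs with. The RefSeq table used here (GRCm38.p6) held 11 mature mouse microRNAs with this seed, and 4 of them are shown because every site below is a match to the part they have in common, in capitals.
let-7a: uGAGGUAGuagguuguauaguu
let-7b: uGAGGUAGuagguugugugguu
let-7g: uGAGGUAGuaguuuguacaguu
miR-98: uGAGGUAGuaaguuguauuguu

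The letters searched for were CTACCTC, the complement of the seed, on the transcript strand of the longest annotated 3' UTR of each protein-coding gene (GENCODE M21, build mm10). All 7 members held at least 1 match, against 9.02% of the 21021 protein-coding genes with an annotated 3' UTR. The 3' UTRs of the members, at 1183 to 6337 bases, were all longer than the median of 961 over the genes searched. Since length was not matched and several members are textbook let-7 targets, this is a description of the set and not a test. For each member 1 match is shown with its surroundings, the first that is followed by an A or otherwise the first, with the match in capitals.
Lin28a (chr4:134005182-134005204, minus strand): ctgttgaaCTACCTCatttttgc
Lin28b (chr10:45381015-45381037, minus strand): cgggaagtCTACCTCatgcaagc
Igf2bp1 (chr11:95961771-95961793, minus strand): gaagtaaaCTACCTCaaggtgtg
Igf2bp2 (chr16:22059466-22059488, minus strand): aataaaagCTACCTCaggtgttt
Igf2bp3 (chr6:49086780-49086802, minus strand): ttactcaaCTACCTCaggtattc
Hmga1 (chr17:27563284-27563306, plus strand): ttcacaaaCTACCTCtggacggt
Hmga2 (chr10:120364217-120364239, minus strand): ttcaatttCTACCTCagcatcag

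The members divided by the number of matches. Igf2bp1, Hmga2 and Lin28b each held 4, in 3' UTRs of 6337, 3014 and 4445 bases. These 3 members were among only 12 genes of the 21021 (0.0571%) that held 4 or more. Lin28a held 2 matches, a number that 98.9% of genes did not reach, and Igf2bp2, Igf2bp3 and Hmga1 held 1 each. A following A, which is known to strengthen repression, stood after 3 of the 4 matches in Igf2bp1, after both in Lin28a and after the single matches of Igf2bp2 and Igf2bp3, but not after that of Hmga1. In Hmga2 and in Lin28b it stood after 1 of the 4. The first match lay 36 bases after the stop codon in Lin28b and 58 bases after it in Hmga2.

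**Figure D1:**
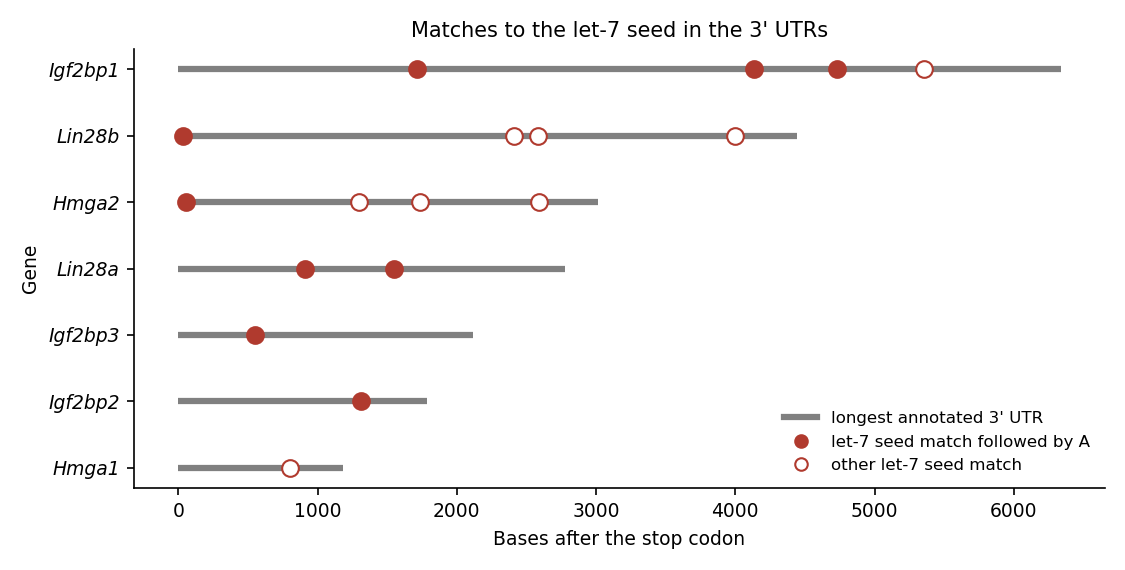
Position of every match to the let-7 seed in the longest annotated 3' UTR of each gene, in bases after the stop codon. Grey bars show the length of the 3' UTR, filled circles a match followed by A and open circles other matches; Igf2bp1, Lin28b and Hmga2 have 4 each and the 3 genes at the bottom have 1 each.

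The 3 genes with 4 matches were also the 3 with the lowest levels, which over 7 chosen genes is a description only. A gene was called on at 1 TPM (a share of all transcripts, corrected for their length) or more in both libraries, and at the floor at 3 counts or fewer in both. Hmga1, Igf2bp2 and Lin28a were on, which is 3 of 7 members against 49.2% of the 22028 protein-coding genes, a share close to that background. Calls were made on whole genes, and for Igf2bp2 and Lin28a they depended on which transcripts were counted, as given below. Igf2bp3 and Igf2bp1 lay below 1 TPM, and Hmga2 and Lin28b were at the floor. In bulk tissue, fewer cells that hold a message and less of it in each cell cannot be told apart.

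By mean TPM (± SD, n = 2) the order was Hmga1 at 8.86 ± 1.56, Igf2bp2 at 2.02 ± 0.141, Lin28a at 1.29 ± 0.113, Igf2bp3 at 0.42 ± 0.0424, Igf2bp1 at 0.025 ± 0.0354, Hmga2 at 0.02 in both libraries and Lin28b at 0 in both. Among protein-coding genes Hmga1 ranked 4965th and Igf2bp2 9606th. Each step down to Igf2bp1 was wider than the SD of the genes on either side, but Igf2bp1 and Hmga2 did not differ beyond their spread. The second quantification deposited with the series, made from the reads and an index without the alignment, gave the same order of means. There the mean of Igf2bp1 was 0.482 ± 0.19 TPM and that of Igf2bp3 0.59 ± 0.00216 TPM, a gap smaller than the SD of Igf2bp1, and in replicate 1 Igf2bp1 was the higher of them, at 0.616 against 0.592 TPM. Only 4.41% of that Igf2bp1 TPM in replicate 1 lay on its coding transcript.

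**Figure D2:**
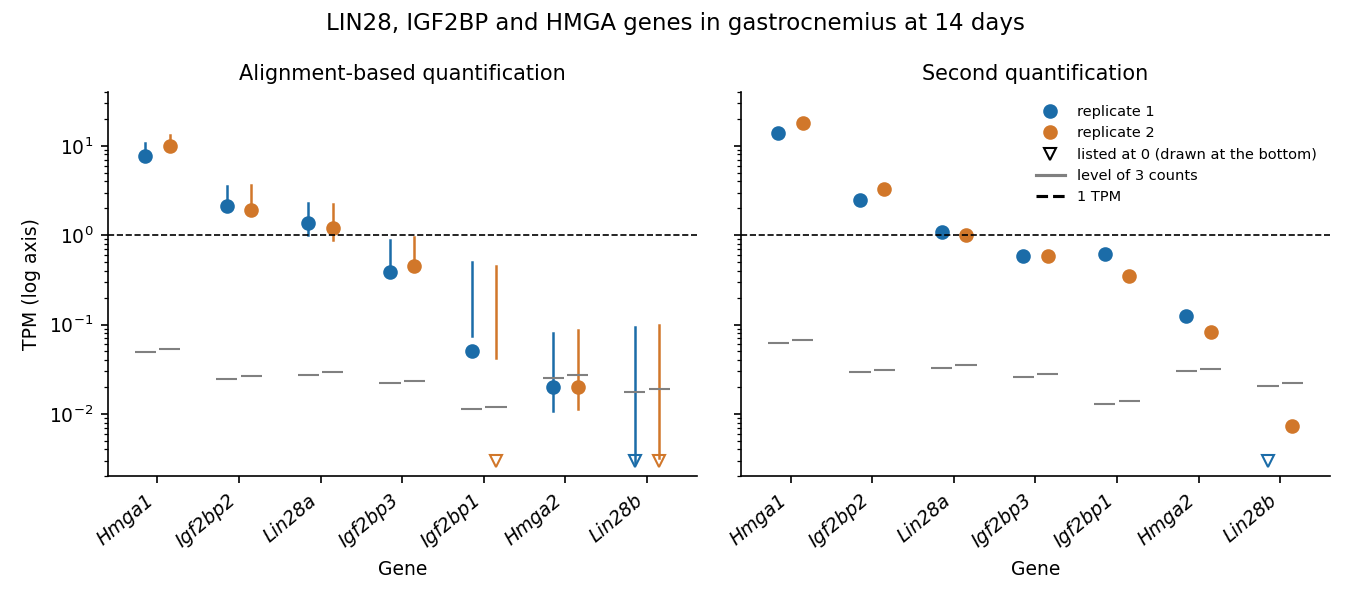
TPM of the 7 genes in each library (points; log axis) in the alignment-based quantification (left) and the second quantification (right). Vertical lines are the quantifier's own interval, grey dashes the level of 3 counts and triangles a value of 0; Hmga1, Igf2bp2 and Lin28a lie at or above the dashed line of 1 TPM in both panels.

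The 2 LIN28 genes, RNA-binding proteins that hold back let-7, were far apart. Lin28a (chromosome 4, 134003330 to 134018841, minus strand) had 72 counts and 1.37 TPM in replicate 1 and 59 counts and 1.21 TPM in replicate 2. Lin28b (chromosome 10, 45376620 to 45486395, minus strand) had no count in either library. A count of 0 allows up to 3, or 0.0177 and 0.0189 TPM on its longest coding transcript. Against that limit, which covers counting error in this table only, the listed TPM of Lin28a was 77.6 times as high in replicate 1. In replicate 2 it was 64.1 times as high. The counting error of Lin28a and the doubt about its isoforms, given below, are not in these ratios. The quantifier's own interval for Lin28b was wider and reached 0.0932 and 0.0999 TPM, and that for Lin28a began at 1.01 and 0.875 TPM. The second quantification gave Lin28b 0 and 1 count.

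How far Lin28a stood above 1 TPM depended on a short isoform. The full-length coding transcript Lin28a-201 held 64.3 and 52.9 of the counts and by itself came to 0.59 and 0.52 TPM. The 394-base coding transcript Lin28a-202 held 6.19 and 6.12 counts, which its short length turned into 0.66 and 0.69 TPM, about as much as the full-length form. In the second quantification Lin28a-202 was at 0 and Lin28a-201 at 0.823 and 0.777 TPM, and the gene as a whole was at 1.09 and 1.00 TPM. Lin28a was therefore detected in both libraries by both methods, close to the threshold, and its full-length transcript alone stayed below it.

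The 3 IGF2BP genes encode closely related RNA-binding proteins, and Igf2bp2 was the highest of them. Igf2bp2 (chromosome 16, 22059009 to 22163299, minus strand) had 158 counts and 2.12 TPM in replicate 1, and 179 counts and 1.92 TPM in replicate 2. Igf2bp3 (chromosome 6, 49085223 to 49214957, minus strand) had 53 counts and 0.39 TPM, and 57 counts and 0.45 TPM. Igf2bp1 (chromosome 11, 95957163 to 96005940, minus strand) had 7 counts and 0.05 TPM in replicate 1 and none in replicate 2. The listed TPM values of the 3 genes did not overlap in this quantification, but the quantifier's own intervals of Igf2bp1 and Igf2bp3 did in both libraries. That of Igf2bp1 reached 0.498 and 0.454 TPM, and that of Igf2bp3 began at 0.377 and 0.438 TPM.

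Within a library, the TPM of Igf2bp2 was 5.43 times that of Igf2bp3 in replicate 1 (95% exact counting interval 3.96 to 7.56) and 4.27 times in replicate 2 (3.15 to 5.85). Against Igf2bp1 it was 46.6 times as high in replicate 1 (22.1 to 118), and Igf2bp3 was 8.58 times as high as Igf2bp1 there. No ratio to Igf2bp1 is given here for replicate 2, where Igf2bp1 was listed at 0 while its deposited interval ran from 0.0427 to 0.454 TPM. No p is given for these ratios, since the smallest that flipping signs over 2 libraries allows is 0.5. The intervals take the assigned counts as exact, and the gene TPM of Igf2bp2 includes noncoding transcripts. The main coding transcript Igf2bp2-201 was at 0.58 and 1.03 TPM, beside 0.37 and 0.43 TPM for the coding Igf2bp3-201, a smaller distance than between the genes. By gene TPM Igf2bp2 was the highest of the 3 in each library in both quantifications, but the distance to Igf2bp1 was not stable. The second quantification put Igf2bp1 at 0.616 and 0.348 TPM beside 2.45 and 3.31 TPM for Igf2bp2 and 0.592 and 0.588 TPM for Igf2bp3. It gave Igf2bp1 17.2 and 9 counts, of which 9.21 and 7 fell on Igf2bp1-203, a transcript with no annotated coding sequence, and 6.27 and 2 on the coding transcript Igf2bp1-201. In TPM, Igf2bp1-203 was at 0.418 and 0.338 there and Igf2bp1-201 at 0.0272 and 0.00927. The alignment-based table had Igf2bp1-201 at 0.02 and 0 TPM, so the coding transcript was near 0 in both.

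For Igf2bp2 the TPM and the counts went opposite ways between the libraries, and the assignment of reads to transcripts differed with them. The coding transcripts held 86.4 of the 158 counts in replicate 1 and 117 of 179 in replicate 2. In replicate 1 another 66.3 counts were given to retained-intron transcripts, led by Igf2bp2-207 with 53. In replicate 2 Igf2bp2-207 was at 0, and 51.1 counts went instead to a noncoding processed transcript, Igf2bp2-210. The second quantification put 207 and 233 counts on the coding transcript Igf2bp2-201 and none on Igf2bp2-207 or Igf2bp2-210. That change of isoform in the alignment-based table was therefore not seen in the other table, and the level of coding Igf2bp2 depended on the quantifier. In the alignment-based table the coding transcripts Igf2bp2-201 and Igf2bp2-202 were at 0.58 and 0.17 TPM in replicate 1, below 1 TPM together. In replicate 2 they were at 1.03 and 0 TPM. The second quantification put Igf2bp2-201 at 2.03 and 2.44 TPM.

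**Figure D3:**
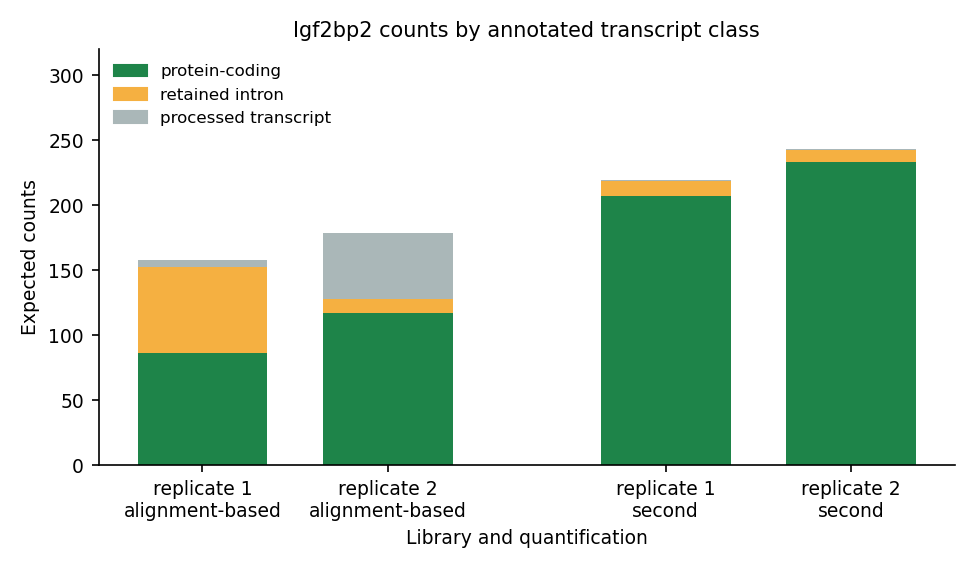
Expected counts of Igf2bp2 by annotated transcript class (stacked bars from 0) in each library and quantification. Retained-intron transcripts take 66.3 counts in replicate 1 and processed transcripts 51.1 in replicate 2 of the alignment-based table, while the second quantification places 207 and 233 counts on coding transcripts.

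Igf2bp3 was carried almost wholly by its coding transcript Igf2bp3-201, with 95.3% and 95.1% of the gene's TPM. Its 3' end runs into Malsu1, a gene for a mitochondrial ribosome factor on the opposite strand that had 17.7 and 20.3 TPM, and the loci overlap by 1529 bases. The added RNAs are described as a set for stranded libraries, but the strand setting of the counting is not given in the sources used here. Whether some of the 53 and 57 counts came from Malsu1 messages cannot be told apart in these tables.

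The 2 HMGA genes, architectural proteins of chromatin, were also far apart. Hmga1 (chromosome 17, 27556497 to 27563674, plus strand) had 331 counts and 7.76 TPM in replicate 1 and 414 counts and 9.96 TPM in replicate 2. Hmga2 (chromosome 10, 120361275 to 120476469, minus strand) had 2 counts and 0.02 TPM in each library. Hmga1 was thus well above the floor in both libraries and Hmga2 at it in both. The ratio of their TPM was 449 in replicate 1 (95% exact counting interval 123 to 3717) and 554 in replicate 2 (152 to 4589), and its width follows from the 2 counts of Hmga2. These intervals take the assigned counts as exact and leave out the choice of quantifier. The second quantification gave Hmga2 12 and 7.32 counts, or 0.124 and 0.0824 TPM, which is above the floor and still below Igf2bp1. The mean log2 ratio of Hmga1 over Hmga2 was 7.27 there, against 8.96 in the alignment-based table.

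Hmga1 has a near-identical copy, Hmga1b (chromosome 11, 120762794 to 120764419, plus strand), annotated as a protein-coding gene with a single exon. The 324 coding bases of Hmga1b were identical to those of the transcript Hmga1-213, and 92.7% of the 31-base words of Hmga1b also occurred in Hmga1 transcripts. In the other direction 62.1% of the 31-base words of Hmga1 were shared, so more of Hmga1 than of its copy can be told by its own sequence. Hmga1b was given 273 and 190 counts, or 5.58 and 4.15 TPM, so the Hmga1 share of the pair was 54.8% in replicate 1 and 68.5% in replicate 2. Together the 2 genes had 604 counts in each library and 13.3 and 14.1 TPM. The second quantification divided the pair in a similar way, with 49.5% and 67.3% of the counts on Hmga1.

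The coding isoforms of Hmga1, 17 in the annotation, were no better separated. Hmga1-201 took 47.6% of the TPM of the gene in replicate 1 and 28.1% in replicate 2, and Hmga1-211 took 26.4% and 13.3%. Hmga1-216 was at 0 in replicate 1 and took 26.5% in replicate 2, and Hmga1-209 took 7.35% and 14.9%. In the second quantification Hmga1-201 was at 0 in replicate 1 and took 18.6% in replicate 2. The isoform shares thus differed between libraries and between methods. Between the libraries the sum over the gene and its copy was the steadiest of these values. In the second quantification that sum was 23.1 and 24.1 TPM, so its level depended on the method.

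**Figure D4:**
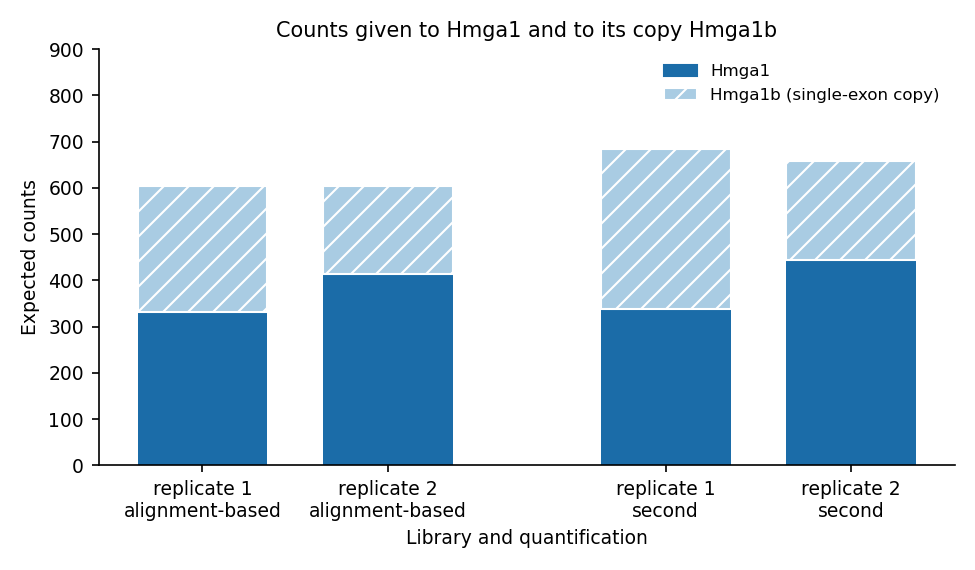
Expected counts given to Hmga1 (solid) and to its single-exon copy Hmga1b (hatched), stacked from 0, per library and quantification. In the alignment-based table the stacks reach 604 counts in both libraries while the boundary between the genes moves from 331 to 414.

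The design allowed 1 test, whether the libraries differed by more than counting error. Each of the 17245 genes with at least 10 counts was given an exact two-sided binomial test, with library sizes scaled by the TMM method and p-values adjusted by Benjamini-Hochberg. Of all genes tested 21.3% passed, so passing is common between these libraries. Of the members 4 had enough counts and 1 passed. Hmga1 was higher in replicate 2 by 0.47 on the log2 scale (adjusted p = 0.000107, exact binomial test), and its copy Hmga1b was lower there, at -0.37 (adjusted p = 0.0316). With both counted as 1 gene, an alternative chosen after seeing the data, the log2 difference was 0.15 and did not pass (adjusted p = 0.213). The quantifier's own intervals for Hmga1, 7.35 to 10.9 TPM and 9.28 to 13.1 TPM, also overlapped.

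The other members tested did not pass. The log2 difference of replicate 2 over replicate 1 was 0.33 for Igf2bp2 (adjusted p = 0.132), 0.25 for Igf2bp3 (adjusted p = 0.629) and -0.14 for Lin28a (adjusted p = 0.796). The median over all genes tested was -0.01. Scaling to the added RNAs moved that median to -0.30, and on this scale Hmga1 was at 0.18 and did not pass (adjusted p = 0.147). Igf2bp1, with 7 counts against 0, was under the minimum of 10 counts. Without a minimum it did not pass either (adjusted p = 0.0987, exact binomial test).

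**Figure D5:**
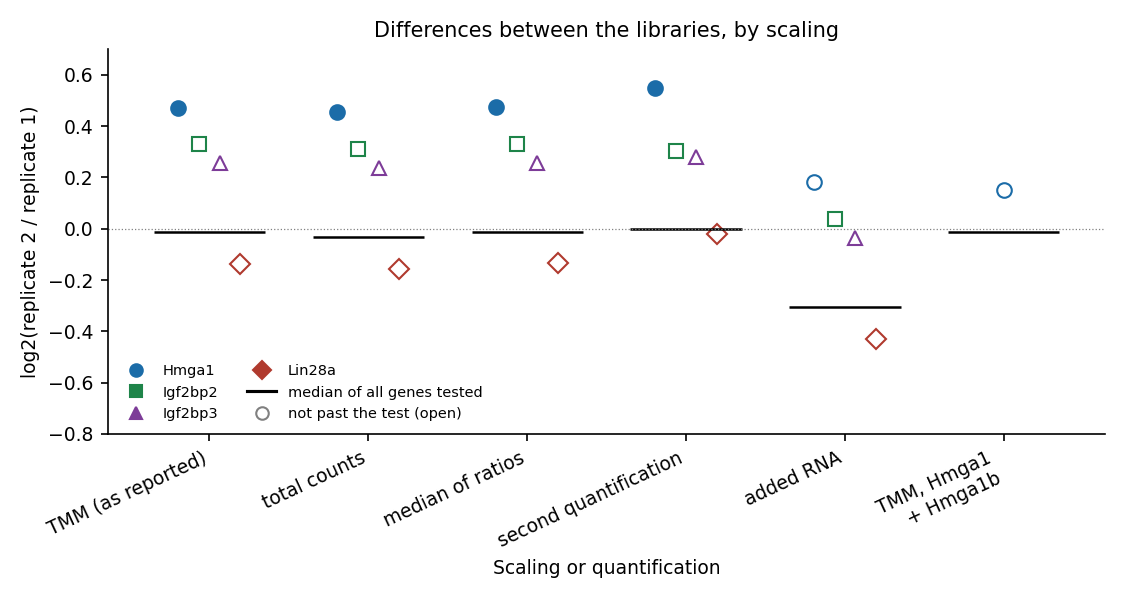
Log2 ratio of replicate 2 over replicate 1 for the 4 members tested, under each scaling and in the second quantification; filled symbols passed the test, open symbols did not, and black lines are the median of all genes tested. Hmga1 is filled in the first 4 columns and open with added-RNA scaling and when summed with Hmga1b.

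The genes around the members in the let-7 pathway were broadly present. Of 21 genes that make, modify or degrade let-7, 20 were on. The highest were Ddx5, at 91.5 and 87.8 TPM, and Ddx17, at 34.9 and 30.2 TPM, RNA helicases that assist the microprocessor, and Hnrnpa1, at 51.3 and 45.4 TPM, an RNA-binding protein that acts on the let-7a precursor. Between the libraries 2 of the 21 were higher in replicate 2 and 4 in replicate 1, with a median log2 difference of -0.02. Over all genes tested 10.6% were higher in replicate 2 and 10.7% in replicate 1, the background for the counts of each direction given here.

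The let-7 hairpins themselves were not measured by these libraries. All 12 listed hairpin genes were at 0, and for 10 of them the quantifier's effective length was 0, which leaves no way to assign a level. Of the genes that host such hairpins, Huwe1, a ubiquitin ligase gene with introns that hold Mir98 and Mirlet7f-2, had 47.4 and 46.6 TPM, and Wdr82, the host of Mirlet7g, had 10.6 and 11.8 TPM. The level of a host message says nothing certain about the mature microRNA.

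Of 23 other genes of growth and division known as let-7 targets, 15 held a seed match in the 3' UTR searched. In the list 17 were on, and 6 passed the test as higher in replicate 2 and 3 in replicate 1. Cdc34, a ubiquitin-conjugating enzyme, was at 142 and 152 TPM and the GTPase Hras, with no match in the sequence searched, at 87.0 and 99.7 TPM. Ccnd1, the gene of cyclin D1 and also without a match there, was at 5.65 and 10.6 TPM and 1.77-fold higher in replicate 2 by counts (adjusted p = 3.5e-29, exact binomial test). Trim71, another classic let-7 target of the embryo, was at 0 in both libraries and held 4 seed matches, as did Lin28b and Hmga2. Among all genes with 4 or more matches 3 of 12 were on. These 12 include Igf2bp1, Hmga2 and Lin28b themselves, so their share is a description and not a test. The 3 that were on, Mcf2l, Nudt12 and Zbtb37, are named after their values were seen. Of the 32 genes with 3 or more matches, which include the 12, 40.6% were on, against 50.5% of the 19124 with none. Genes with 1 match were on in 59.6% of cases and those with 2 in 60.8%, so presence did not fall steadily with the number of matches. The 3' UTR lengths differed as well, with medians of 869 bases at 0 matches and 2123 at 1.

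Levels in the list of messages bound by IGF2BP proteins and of their granule partners ranged widely. The imprinted noncoding RNA H19 was at 4293 and 3850 TPM, the growth factor Igf2 at 1276 and 1170 TPM and Actb, cytoskeletal actin, at 387 and 449 TPM. Other messages of the list were low, such as Cd44, an adhesion receptor, at 7.01 and 7.51 TPM, and Ptgs2, a prostaglandin synthase, at 0.12 and 0.11 TPM. Both are outside the rule for named genes and were chosen after their values were seen. In the whole list 14 of 15 genes were on, with 3 higher in each library. All 17 genes of the m6A machinery were on, led by Hnrnpa2b1, a reader, at 115 and 114 TPM, Fto, an eraser, at 38.3 and 36.4 TPM and Hnrnpc, another RNA-binding reader, at 34.6 and 36.2 TPM. Of these 17, 2 were higher in replicate 2 and none in replicate 1.

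Other high mobility group genes were mostly present, 11 of 13. Hmgb1 was at 56.6 and 47.2 TPM, Hmgn2 at 49.8 and 45.7 TPM and Hmgn1 at 15.4 and 20.4 TPM, each above Hmga1, and Hmgb4, a testis form, was at 0. Of these 13 genes 1 was higher in each library. Among 18 other oncofetal genes 12 were on, with 2 higher in replicate 2 and 5 in replicate 1. The cell-cycle inhibitor Cdkn1c was at 255 and 243 TPM, beside Igf2 and H19, while Afp, Trim71 and Epcam were at the floor. Meg3, an imprinted noncoding RNA, was at 271 and 124 TPM, a ratio by counts of 0.503 in replicate 2. Sall4, a stem-cell transcription factor, was at 0.32 and 0.63 TPM and 3.07-fold higher in replicate 2 by counts (adjusted p = 3e-04, exact binomial test).

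The tissue label was borne out by its markers, since all 8 skeletal muscle markers were on, with Acta1 at 26590 and 28620 TPM. Markers of cells in which these families are usually described were also present. Of 10 satellite cell and myoblast markers 8 were on. The highest were Itga7 at 40.02 and 33.9 TPM, Sdc4 at 32.8 and 23.3 TPM and Notch3 at 12.9 and 13.2 TPM. In bulk tissue these levels do not show which cells held the messages. Pax7 at 1.46 and 1.74 TPM and Myf5 at 1.89 and 1.41 TPM, named after their values were seen, lay near the threshold. Chrdl2 and Calcr lay below it, and Calcr was 0.539 times as high in replicate 2 (adjusted p = 0.016, exact binomial test). Of 12 markers of dividing cells 11 were on, with summed levels of 45.3 and 34.4 TPM. In that list none was higher in replicate 2 and 4 were higher in replicate 1, with a median log2 difference of -0.49, and Cdk1 was at 4.97 and 2.78 TPM. Hmga1, a gene known from dividing cells, was at a log2 difference of 0.47, and at 0.55 in the second quantification. Its copy Hmga1b was at -0.37 and -0.52, and the pair counted as 1 gene at 0.15 and 0.106. A link between these genes and the dividing cell markers was not tested.

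Markers of other tissues moved between the libraries as well. The 8 adipocyte markers summed to 176 and 150 TPM, a total held mostly by Fabp4 at 171 and 130 TPM, but 6 of them were higher in replicate 2 and 2, Fabp4 and Pparg, in replicate 1. Among the former were Cfd at 1.62 and 10.3 TPM and Plin1 at 0.22 and 2.07 TPM. Summed levels of 8 Schwann cell markers were 121 and 168 TPM, with 3 higher in replicate 2, and those of 7 erythroid markers were 1393 and 1958 TPM, with 5 higher there. The 10 endothelial markers summed to 264 and 214 TPM, with 1 higher in replicate 2 and 6 in replicate 1, and the 10 fibro-adipogenic markers to 2734 and 2243 TPM, with 2 and 4. The 8 pericyte and smooth muscle markers summed to 422 and 410 TPM, with 2 higher in each library, and the 8 macrophage markers to 46.4 and 43.3 TPM, with none higher in replicate 2 and 1 in replicate 1. No marker in these cell type lists was at the floor in both libraries. The part of these cells in the members' levels was not tested.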

How the data were processed

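Total RNA-seq of gastrocnemius was analysed in 2 libraries of 1 group. Per the labels the build was mm10 with GENCODE M21. The name of the aligner is not given in the sources used here. In their tables the authors deposited expected counts (estimated reads per gene and transcript, not normalised), TPM scaled by the authors over all entries of a table, and 2 signal values per gene, the ends of the interval that the quantifier drew around the TPM, whose level is not stated. The deposited TPM of Igf2bp1 and Lin28b in both libraries, and of Igf2bp2 in replicate 2, lies below that interval. A second deposited transcript table was summed per gene.

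The members and the 17 gene lists were chosen with earlier results of these data known. Expected counts were rounded and scaled with TMM (edgeR 4.0.16, R 4.3.3), and each gene with at least 10 counts over both libraries was given an exact two-sided binomial test in scipy 1.17.1, adjusted by Benjamini-Hochberg at 0.05. The test was tried on simulated data first. The test, intervals and floor of 3 counts cover counting error only and describe these 2 libraries, which may share a donor. Ratios of family members used TPM within a library, with Clopper-Pearson 95% intervals. Named were the members, genes that overlap or copy them, in each list the 3 genes of highest mean TPM, genes past the test with a fold of at least 1.5 and markers at the floor, and transcripts whose mean share reached 10%; for space some of these are given as counts. The reference is not specific to CAST alleles. With 1 group there was no test between conditions.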

Additional observations from a re-analysis of the deposited data

How the results depend on the processing

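The order of the members' mean levels was the same in both quantifications, but the TPM values differed. In replicate 1 of the second, Igf2bp1 lay above Igf2bp3 by gene TPM but not by coding transcript, at 0.0272 against 0.463 TPM. The second quantification gave means of 15.8 for Hmga1, 2.88 for Igf2bp2, 1.05 for Lin28a, 0.59 for Igf2bp3, 0.482 for Igf2bp1, 0.103 for Hmga2 and 0.00368 for Lin28b. Rescaling TPM to nuclear protein-coding genes, which held 46.5% and 47.3% of it, gave 18.9 for Hmga1, 4.31 for Igf2bp2, 2.75 for Lin28a, 0.895 for Igf2bp3 and 0.0427 for Hmga2. Hmga1 summed with Hmga1b, chosen after seeing the data, came to 13.7 TPM, and to 23.6 TPM in the second quantification. At 2 TPM 1 member was on in place of 3, against 42.6% of protein-coding genes, since Lin28a fell short in both libraries and Igf2bp2 in replicate 2. The number of genes past the binomial test was 3671 and became 9052 with added-RNA scaling, and the share of calls higher in replicate 2 went from 49.7% to 3.27%. On that scale the log2 difference of Hmga1 was 0.18 and no longer passed, and that of Igf2bp3 reversed to -0.0366, neither sign passing. Summing Hmga1 with Hmga1b gave 0.15, which did not pass, and total counts, median-of-ratios factors, the second quantification and no minimum count left each call on members as it was. The mean log2 ratios without pseudocount were 6.43 for Igf2bp2 over Igf2bp1, 2.27 for Igf2bp2 over Igf2bp3, -4.16 for Igf2bp1 over Igf2bp3, 8.96 for Hmga1 over Hmga2 and -6.14 for Lin28b over Lin28a. Where Lin28b (both libraries) or Igf2bp1 (replicate 2) was at 0, the level of 3 counts stood in for it, so those means hold limits for counting error only. For Igf2bp1 that level was 0.0121 TPM, below its deposited interval of 0.0427 to 0.454 TPM, so the 2 means with Igf2bp1 are not firm. With log2(TPM + 0.1) the first and the last 3 were 4.13, -2.11, 6.24 and -3.80. With log2(TPM + 1) all 5 were, in that order, 1.56, 1.09, -0.47, 3.27 and -1.20. From expected counts Igf2bp2 over Igf2bp3 was 1.61, Hmga1 over Hmga2 7.53 and Lin28b over Lin28a -4.44. In the second quantification Igf2bp2 over Igf2bp1 was 2.62, Igf2bp1 over Igf2bp3 -0.35, Hmga1 over Hmga2 7.27 and Lin28b over Lin28a -6.41. No mean ratio changed sign, and pseudocounts shrink ratios of low genes by construction. The causes of the other shifts were not tested. No paired analysis was possible because there is only 1 group. Depth limits what can be said of Lin28b and Hmga2, which had 3 counts or fewer in both libraries of the alignment-based table. For Hmga2 the quantifier mattered too, since the second gave it 12 and 7.32 counts.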
